A study of Danio rerio with 2 samples.

Results

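The genes described here mark macrophages, neutrophils and lymphocytes or encode cytokines and the proteins that relay their signals. A list of 38 gene names was matched to the gene IDs of the deposited table, ignoring case, and a name that the names table gives only in capitals and without a copy suffix counted for all its IDs. Of the 38 names, 36 matched, to 47 gene IDs, and 2 (mpx and grn1) were not matched by name and have no value here. A gene ID entered with at least 1 CPM (counts scaled to a library size of 1e+06) in 1 or both libraries, which left 34 of the 47, among 19829 genes above that floor in a table of 26597. The 34 are 9 macrophage genes, 6 neutrophil genes, 8 genes shared by most leukocytes, 3 lymphoid genes and 8 cytokine and signalling genes.

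The samples were 1 zebrafish library labelled WT, with no treatment named, and 1 labelled salvianolate-treated, both of total RNA and both labelled as cardiac tissue. Salvianolate is a mixture of salvianolic acids prepared from the root of Salvia miltiorrhiza. No strain, age, dose, duration or number of animals is given in the labels, the title of the treated sample speaks of embryos, and the treatment stands where the genotype is expected. In the files of 1 library each, the column heads read AB72h for WT and DSDF for treated, and no label explains either head, so no strain, age or agent is taken from them. Each condition is a single library, so differences have no replicate check and no p-value is given, and every interval covers counting error only. Directions follow the labelled columns, in which more genes were higher than lower after treatment, whereas the design text of the series counts more genes as lowered.

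In zebrafish, as in mammals, macrophages and neutrophils form the innate cellular defence and work in the embryo before lymphocytes have matured. Both arise under the transcription factor PU.1, after which Irf8 favours the macrophage and C/EBP factors the neutrophil lineage. Microbial products bound by Toll-like receptors signal through the adaptor Myd88 to NF-κB, which switches on cytokines such as interleukin-1 beta, tumour necrosis factor and interleukin-8. Cytokines of the interleukin-6 family act through Stat3, which induces its own brake, Socs3. In the heart, macrophages reside among the muscle cells, and neutrophils enter after injury.

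The WT library held 19531808 estimated counts and the treated library 19295535, and 3 counts amount to 0.157 and 0.152 CPM. Defining markers of heart muscle were present at modest levels: MYL7, the heart myosin light chain, stood at 18.26 FPKM (fragments scaled to gene length and library size) in WT and 14.65 FPKM in the treated library, and the 9 heart marker genes summed to 99.7 and 93.7 CPM. Markers of other tissues were far more abundant, with the muscle actin gene actc1b at 9266.66 and 10063.66 FPKM and the keratin gene krt4 at 2603.76 and 1924.78 FPKM. The 7 erythroid marker genes summed to 4780 and 3077 CPM and the 10 eye marker genes to 1143 and 1962 CPM. The part that such differences in tissue content play in the values of the immune genes was not tested.

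Immune genes were at similar levels in the 2 libraries. Of the 34, NCF1, a subunit gene of the phagocyte oxidase, was at least 2-fold higher in the treated library with a counting interval above a ratio of 1, and none was at least 2-fold lower. Among all 19829 genes, 2.69% met the rule as higher, 0.721% as lower and 3.41% in either direction, so 1 of 34 (2.94%) and 0 of 34 lie near the background. Summed over the 34 genes, the level was 348 CPM in WT and 331 CPM in the treated library. The median log2 ratio of treated over WT was -0.09 over the 34 genes and -0.002 over all genes.

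At any fold, the exact 95% counting interval of the ratio lay above 1 for 4 members (NCF1, mmp13a, IKZF1 and 1 SOCS3 copy). It lay below 1 for 4 others (CEBPB, CORO1A, 1 MFAP4 copy and 1 CXCR4 copy) and included 1 for 26. These are 11.8% in each direction, against 17.4% above and 17.3% below over all genes. For 28 members (82.4%) the interval lay wholly within a 2-fold difference in either direction, as it did for 84.1% of all genes. What could be seen depended on the count, and the members stood lower than all genes, at a median of 2.73 against 5.78 FPKM in WT. The part of this in the lower shares of the members was not tested. A gene with 21 counts in WT, such as RAG2, needed a 1.74-fold higher level for an interval above 1, and one with 800 counts, such as CXCL12, needed 1.1-fold.

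**Figure D1:**
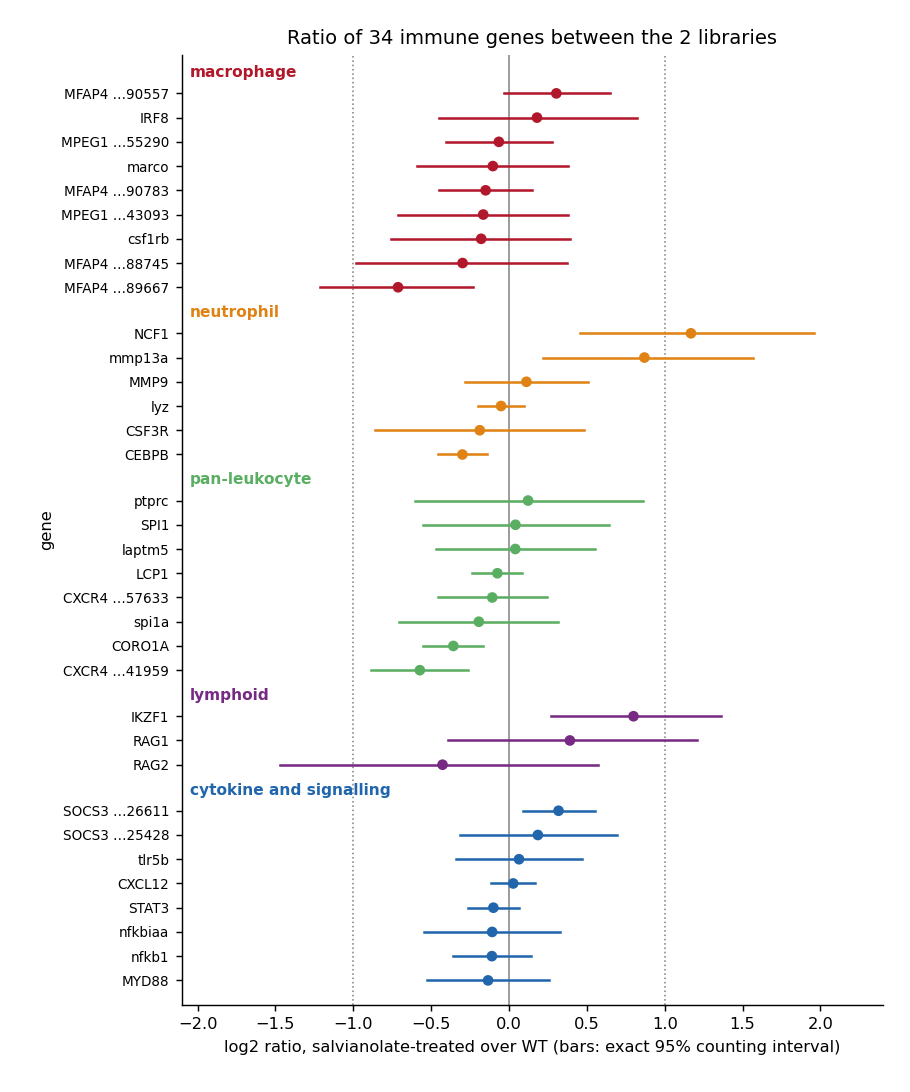
Log2 ratio of treated over WT for the 34 immune genes, by class, with exact 95% counting intervals as bars; the solid line marks equal levels and the dotted lines a fold of 2. NCF1 at 1.17 is the single point beyond a dotted line, and genes that share a name carry the last digits of their ID.

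Macrophage genes were close to equal. None of the 9 was at least 2-fold different, but only 3.41% of all genes were, so this count says little about the class. The median log2 ratio of the 9 genes was -0.15, from -0.71 to 0.30, and their summed level was 44.3 CPM in WT and 41.5 CPM in the treated library. The interval of that summed ratio ran from -0.23 to 0.05 on the log2 scale. In bulk RNA, fewer cells of a type and less RNA per cell cannot be told apart.

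MPEG1 names the perforin-2 genes, of which mpeg1.1 drives the most used macrophage reporters in zebrafish. Of its 3 gene IDs, ENSDARG00000055290 stood at 2.84 FPKM (146 counts) in WT and 2.83 FPKM (144 counts) in the treated library. ENSDARG00000043093 stood at 1.2 and 1.12 FPKM, from 62 and 57 counts. Both were almost level between the libraries, and the third ID, with 1 and 0 counts, was below the floor. The sum over the 3 had a log2 ratio of -0.10 (-0.39 to 0.18).

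MFAP4 names a family of fibrinogen-domain proteins, of which mfap4.1 is expressed in zebrafish macrophages. Of its 8 gene IDs 4 were above the floor, and these went different ways. ENSDARG00000090783, the most abundant of the macrophage genes per length, stood at 11.04 FPKM in WT and 10.45 FPKM in treated. ENSDARG00000089667 stood at 6.28 and 3.99 FPKM (94.4 and 59.19 estimated counts), a log2 ratio of -0.71 (-1.21 to -0.23), the lowest of all 34 members. ENSDARG00000090557 leaned the other way, at 4.55 and 5.89 FPKM, with a ratio of 0.30 (-0.03 to 0.65). ENSDARG00000088745 stood at 2.62 and 1.87 FPKM. The estimated counts of 4 of the 8 copies in WT and 3 in treated were not whole numbers, so reads were divided between features, and the value of a single copy is uncertain. Summed over the 8 copies the counts were 480.13 and 460.95, a log2 ratio of -0.10 (-0.29 to 0.08), and the difference between copies is not seen in the sum.

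The other macrophage members had intervals that included 1. The scavenger receptor gene marco stood at 2.13 and 2.0 FPKM. The gene csf1rb, which encodes 1 of the zebrafish receptors for Csf1, stood at 0.99 and 0.92 FPKM. IRF8, a transcription factor that zebrafish need to form macrophages, stood at 1.19 FPKM (41 counts) in WT and 1.41 FPKM (48 counts) in treated. Its ratio was 0.18 with an interval from -0.45 to 0.82, so a difference below about 1.5-fold was not detectable at this depth.

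**Figure D2:**
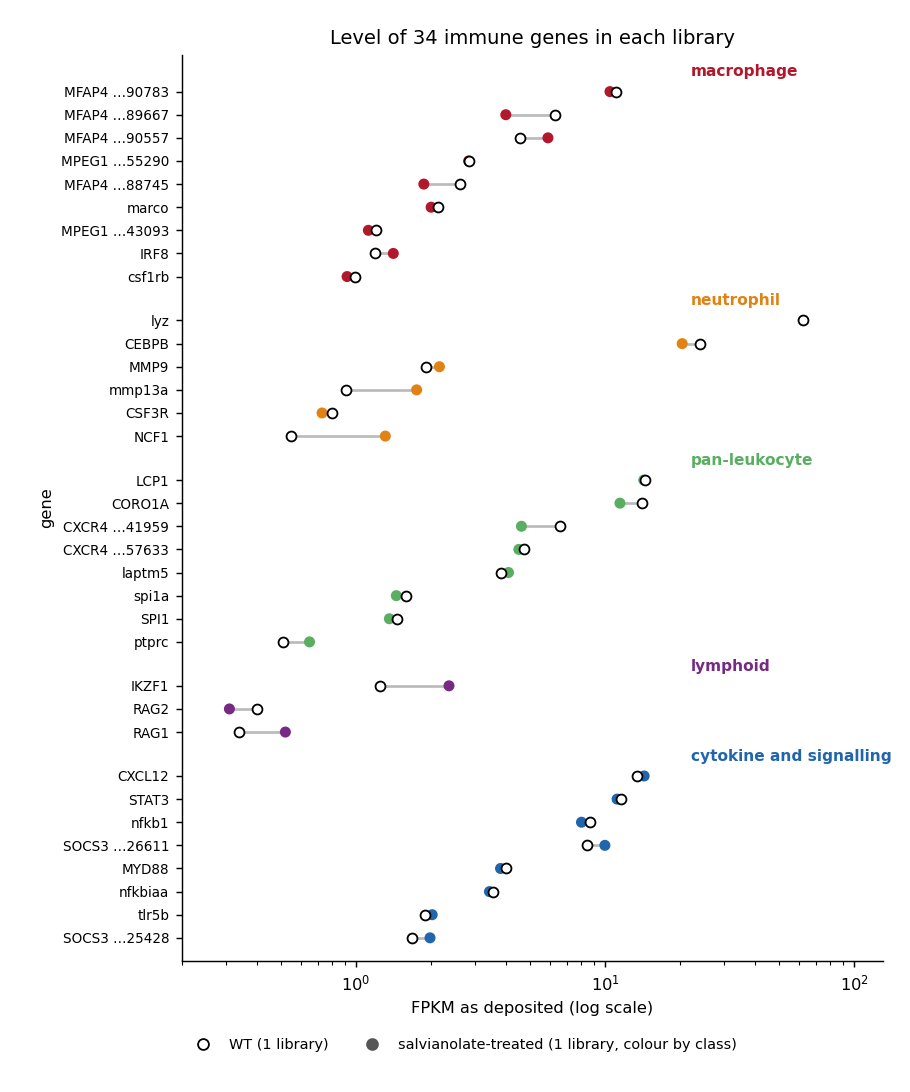
FPKM as deposited, on a log scale, of the 34 immune genes in the WT library (open) and the treated library (filled, coloured by class). Levels run from 0.34 FPKM for RAG1 to 61.97 FPKM for lyz in WT, and the 2 points of most genes lie close together, with NCF1, mmp13a and IKZF1 the most separated upwards.

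Of the 6 neutrophil genes, NCF1 was higher by the fold of 2 (16.7%, against 2.69% of all genes) and none was lower (0.721% of all genes). The intervals of NCF1 and mmp13a lay above 1 (33.3%, against 17.4%) and that of CEBPB below 1 (16.7%, against 17.3%). Those of the other 3 included 1. Each gene counts for 16.7% here, so these shares do not describe the class. The median log2 ratio of the 6 genes was 0.03, from -0.30 to 1.17, and the summed level was 85.8 CPM in WT and 80.5 CPM in treated.

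The lysozyme gene lyz, the most abundant of the 34 per length, stood at 61.97 FPKM in WT and 62.46 FPKM in treated, from 729.82 and 726.77 estimated counts. Its log2 ratio was -0.05 (-0.20 to 0.10), and it exceeded 94.5% of all genes above the floor in FPKM. With total counts or FPKM the sign of this ratio turned to 0.01, and no direction is given. CEBPB, a C/EBP transcription factor gene that is also active outside blood cells, stood at 24.01 and 20.37 FPKM (711 and 596 counts), a ratio of -0.30 (-0.46 to -0.14). CSF3R, the receptor gene for granulocyte colony-stimulating factor, stood at 0.8 and 0.73 FPKM, and MMP9, a gelatinase gene, at 1.91 and 2.16 FPKM. Both had intervals that included 1.

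NCF1 (ENSDARG00000033735) encodes the p47phox subunit, which organises assembly of the oxidase that makes superoxide in phagocytes. It stood at 0.55 FPKM (23 counts) in WT and 1.31 FPKM (54 counts) in the treated library. The ratio was 2.25-fold (1.37 to 3.88), a log2 ratio of 1.17 (0.46 to 1.96). The lower bound does not reach 2-fold, and the level is low: in WT only 4.23% of the genes above the floor had as little FPKM or less. By FPKM with nothing added the fold was 2.38. With 0.5 added to each FPKM, which is close to the WT level itself, the log2 ratio was 0.79, under the fold of 2.

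Of the other subunits of the same enzyme, 3 are given here, and none stood 2-fold apart. cyba and cybb, which encode the membrane-bound core, stood at 3.92 and 1.17 FPKM in WT and at 3.71 and 1.35 FPKM in treated, with log2 ratios of -0.14 (-0.62 to 0.34) and -0.01 (-0.49 to 0.48). The cytosolic subunit gene NCF4 had 22 counts in WT and 26 in treated, a ratio of 0.19 (-0.68 to 1.08). The interval of NCF1, from 0.46, overlaps those of cybb (to 0.48) and NCF4 and lies above that of cyba (to 0.34).

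mmp13a (ENSDARG00000012395), a collagenase gene expressed in phagocytes and in injured tissue of zebrafish, stood at 0.91 FPKM (30 counts) in WT and 1.75 FPKM (57.15 estimated counts) in the treated library. It was 1.83-fold higher (1.16 to 2.97), which misses the fold of 2. At a fold of 1.5 the members counted as higher were NCF1, mmp13a and IKZF1 and the member counted as lower was the MFAP4 copy ENSDARG00000089667. Those counts, 3 and 1 of 34, stand against 6.07% and 2.64% of all genes.

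**Figure D3:**
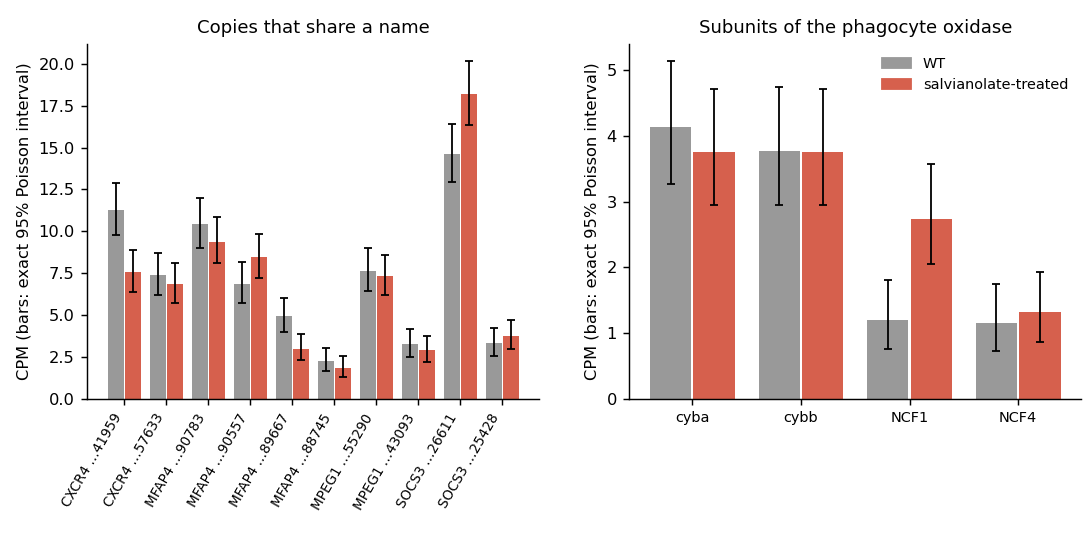
CPM with exact 95% Poisson intervals in the WT library (grey) and the treated library (red), on the left for gene IDs that share a name and on the right for 4 subunits of the phagocyte oxidase. The treated bar of NCF1, at 2.74 CPM against 1.2 CPM, stands apart from its WT bar, and the bars of the other 3 subunits overlap within their intervals.

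Genes shared by most leukocytes were level or a little lower. The 8 genes above the floor had a median log2 ratio of -0.09, from -0.57 to 0.12, and summed to 89.6 CPM in WT and 77.8 CPM in treated. The summed ratio was -0.20 (-0.30 to -0.10), and CORO1A and 1 CXCR4 copy had the lowest ratios.

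The genes for PU.1, the transcription factor on which macrophages and neutrophils depend, were level. spi1a stood at 1.59 and 1.45 FPKM, a log2 ratio of -0.19 (-0.71 to 0.31). SPI1, taken for spi1b, stood at 1.46 and 1.36 FPKM from 48.5 and 51.1 estimated counts. Its ratio was 0.04 by counts and -0.08 by FPKM, so no direction is given.

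Of the actin-associated genes of leukocytes, LCP1 (L-plastin, an actin bundler) stood at 14.4 and 14.28 FPKM, from 642 and 629 counts. Its interval, -0.24 to 0.09, is among the narrowest of the members. CORO1A (coronin 1A) stood at 14.06 and 11.46 FPKM, from 497.96 and 401 estimated counts, a ratio of -0.36 (-0.55 to -0.17). These 2 genes thus went from nearly the same level in WT to different levels in the treated library, and their intervals overlap between -0.24 and -0.17.

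ptprc, which encodes the leukocyte phosphatase CD45, stood at 0.51 and 0.65 FPKM. laptm5, a lysosomal membrane protein gene of blood cells, stood at 3.8 and 4.09 FPKM, and both intervals included 1. The signalling adaptor genes tyrobp and fcer1g, which serve activating receptors of myeloid cells, were below the floor with 6 and 2 counts in WT and 3 and 0 in treated.

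CXCR4 names the genes of the receptor for the chemokine Cxcl12, which is also used by migrating cells outside the blood. The copy ENSDARG00000041959 stood at 6.58 FPKM (215 counts) in WT and 4.61 FPKM (149 counts) in treated, a ratio of -0.57 (-0.89 to -0.27). The copy ENSDARG00000057633 stood at 4.7 and 4.5 FPKM (141 and 135 counts), a ratio of -0.11 (-0.46 to 0.24). Their intervals overlap, and both copies together had -0.37 (-0.60 to -0.14). The counts of both copies were whole numbers. CXCL12, the gene of the ligand, was level at 13.47 and 14.33 FPKM, with 800 and 841 counts and a ratio of 0.03 (-0.11 to 0.17). It was the most abundant of the cytokine and signalling members per length.

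None of the 3 lymphoid genes was 2-fold different, against 3.41% of all genes, which says little for so few genes. RAG1 and RAG2 were near the floor in both libraries. RAG1 and RAG2, which encode the recombinase of antigen receptor genes, leaned opposite ways within wide intervals. RAG1 stood at 0.34 FPKM (25 counts) in WT and 0.52 FPKM (34 counts) in treated, a log2 ratio of 0.39 (-0.39 to 1.2). RAG2 stood at 0.4 FPKM (21 counts) and 0.31 FPKM (16 counts), a ratio of -0.43 (-1.47 to 0.57). Neither differed beyond counting error.

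IKZF1 (Ikaros, a transcription factor of lymphoid and early blood cells) stood at 1.25 FPKM (46 counts) in WT and 2.36 FPKM (83 counts) in treated. It was 1.74-fold higher (1.21 to 2.56), which misses the fold of 2. The T-cell kinase gene lck had 1 and 4 counts and was below the floor. The 3 genes above the floor had a median log2 ratio of 0.39 and summed to 4.81 and 6.75 CPM. The summed ratio was 0.48 (0.09 to 0.89), where IKZF1 supplies most of the difference. RAG2 was the member closest above the floor, at 1.1 and 0.811 CPM, and entered through WT alone. The MFAP4 copy ENSDARG00000111491, at 0.419 and 0.558 CPM, was the closest below it.

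The 5 interleukin and tumour necrosis factor members were barely present in either library. tnfa, il6 and IL10, for tumour necrosis factor and interleukins 6 and 10, had 0 counts in both, which allows levels of up to 0.157 CPM in WT and 0.152 CPM in treated. il1b, for interleukin-1 beta, had 9 and 6 counts, and cxcl8a, for the neutrophil chemoattractant interleukin-8, had 8 and 7. All 5 were below the floor. The intervals of the log2 ratio included 0 and were wide, from -2.40 to 1.02 for il1b and from -1.93 to 1.42 for cxcl8a, so only large differences could have been seen.

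Of the signalling chain upstream of these cytokines, 4 members had intervals that included 1. The flagellin receptor gene tlr5b stood at 1.89 and 2.02 FPKM, a log2 ratio of 0.06 (-0.34 to 0.47), and the adaptor gene MYD88 at 4.0 and 3.8 FPKM, -0.13 (-0.53 to 0.25). The NF-κB precursor gene nfkb1 stood at 8.69 and 8.03 FPKM, -0.11 (-0.36 to 0.14). The inhibitor gene nfkbiaa, itself a target of NF-κB, stood at 3.54 and 3.43 FPKM, -0.11 (-0.54 to 0.33). The intervals of all 4 lay within a 2-fold difference.

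In the branch of interleukin-6, STAT3 stood at 11.6 and 11.16 FPKM, from 638 and 614 counts, a ratio of -0.10 (-0.26 to 0.06). SOCS3, its feedback inhibitor, has 2 gene IDs. The copy ENSDARG00000026611 stood at 8.45 FPKM (279 counts) in WT and 9.97 FPKM (359 counts) in treated, a ratio of 0.32 (0.09 to 0.55). The copy ENSDARG00000025428 stood at 1.67 and 1.98 FPKM, a ratio of 0.19 (-0.32 to 0.70). Both copies thus leaned higher, with 0.29 (0.09 to 0.50) for their sum. Over the 8 cytokine and signalling genes the median was -0.04, which became 0.03 with total counts, and the summed level was 124 CPM in WT and 125 CPM in treated.

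**Figure D4:**
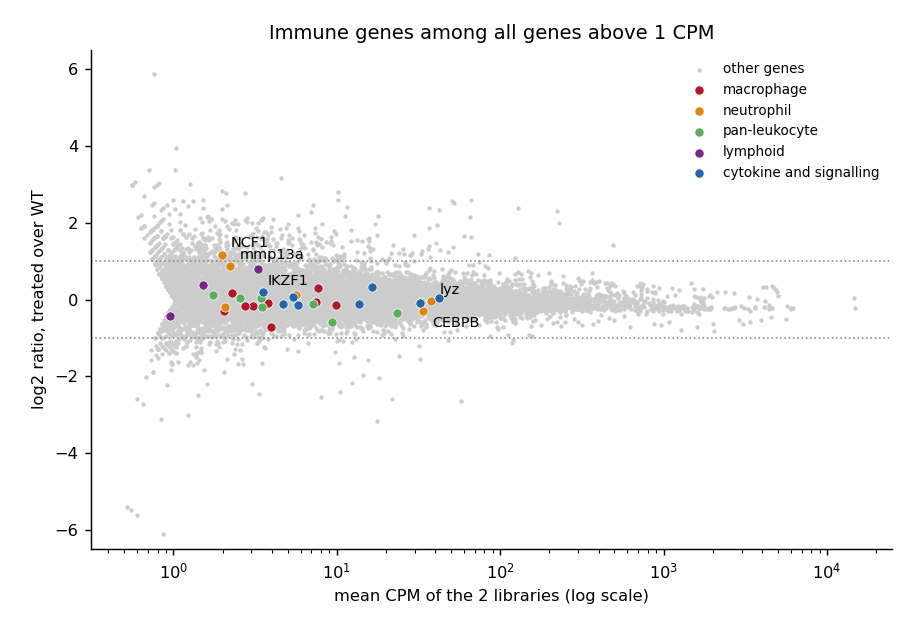
Log2 ratio of treated over WT against the mean CPM of the 2 libraries (log scale) for all 19829 genes above the floor (grey) and the 34 immune genes (coloured by class); dotted lines mark a fold of 2. The immune genes lie inside the band of other genes of similar level, and only NCF1, at a log2 ratio of 1.17, lies past a dotted line.

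Further genes of the same cell types and pathways were looked up from 9 lists that hold no member, of which 7 are given here. Over all 9 lists, 152 genes were above the floor, with a median log2 ratio of -0.07. Of these, 3 (1.97%, against 2.69% of all genes) were higher by the fold of 2 and 5 (3.29%, against 0.721%) lower. All of these higher and lower genes but gfi1aa reached 1 CPM only in the library where their level was higher. The floor thus admitted them through the values compared, and the shares are a description only.

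Of 17 other macrophage and microglia genes none was 2-fold different (3.41% of all genes in either direction), and the median was -0.15. The interval lay below 1 for 5 of the 17 (29.4%, against 17.3% of all genes) and above 1 for none (17.4% of all genes). The receptor gene csf1ra, the paralogue of csf1rb, stood at 7.4 and 7.27 FPKM. The lowest ratio and the highest level were those of apoeb, an apolipoprotein E gene that microglia express and that is also strong in other tissues, at 1276.2 and 811.39 FPKM, a ratio of -0.72 (-0.74 to -0.69). The chemokine receptor gene cxcr3.2 had the highest, 0.21 (-0.32 to 0.75). Of 16 other neutrophil and granulocyte genes none was 2-fold different, and the median was -0.01. The interval lay below 1 for 1 of the 16 (6.25%) and above 1 for none. The most abundant was pnp4a at 34.57 and 38.97 FPKM, and which cells express it was not tested. The lowest ratio was that of the leukotriene receptor gene LTB4R at -0.53 (-1.53 to 0.41), and NCF4 had the highest. Genes of 12 lymphoid names and copies had a median of -0.09 and none was 2-fold different. The interval lay below 1 for 2 of the 12 (16.7%) and above 1 for none. The other 19 of the 31 gene IDs on that list were below the floor, among them cd4-1 and cd8a with 0 counts in both. Which cells express the 12 was not tested. TOX, the most abundant, stood at 67.0 and 62.04 FPKM, and bcl11ba had the highest ratio, 0.03. foxn1, a transcription factor gene of the thymus epithelium, had the lowest, -0.90 (-1.84 to -0.05), from 33 and 18 counts.

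Of 24 further genes of Toll-like receptors and NF-κB, 1 was 2-fold lower (4.17%, against 0.721% of all genes) and none higher. The interval lay below 1 for 7 of them (29.2%, against 17.3% of all genes) and above 1 for none. The gene that was 2-fold lower was tlr22, a fish Toll-like receptor gene, with 27 counts in WT and 12 in treated, a ratio of -1.18 (-2.33 to -0.19). The NF-κB subunit gene RELA stood at 7.1 and 5.14 FPKM, -0.53 (-0.82 to -0.24), the inhibitor gene nfkbiab, the most abundant in WT, at 38.13 and 33.48 FPKM, and UNC93B1 had the highest ratio, 0.31. Of 19 JAK-STAT genes none was 2-fold different (3.41% of all genes in either direction), and the median was 0.08. jak2a, the most abundant in WT, had the lowest ratio, -0.32 (-0.43 to -0.21), and stat2 the highest, 0.39 (-0.01 to 0.80).

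Of 16 further cytokine and chemokine genes 1 was 2-fold higher (6.25%, against 2.69% of all genes) and none lower (0.721% of all genes). The interval lay above 1 for 4 of the 16 (25%, against 17.4%) and below 1 for 1 (6.25%, against 17.3%). Of 21 receptor genes 1 was higher (4.76%) and 2 were lower (9.52%, against 0.721%), all from few counts. The interval of a receptor gene lay below 1 for 8 of the 21 (38.1%, against 17.3%) and above 1 for 2 (9.52%, against 17.4%). Those 2 were ifngr1 and il17ra1a, an interleukin-17 receptor gene with 69.08 and 112.75 estimated counts, a ratio of 0.66 (0.22 to 1.12). ccl19a.1, a chemokine gene of the CCL19 kind, had 11 counts in WT and 28 in treated, a ratio of 1.26 (0.25 to 2.46). ifngr1, an interferon gamma receptor gene, had 14 and 31 counts, 1.07 (0.15 to 2.13). The chemokine receptor gene ccr12a had 41 and 13 counts, -1.67 (-2.73 to -0.77), and the receptor chain gene csf2rb had 24 and 11 counts, -1.14 (-2.35 to -0.09). Among genes at higher levels, the most abundant cytokine gene, MIF, stood at 36.07 and 43.13 FPKM, a ratio of 0.20 (0.02 to 0.38). The scavenging receptor copy ACKR3 (ENSDARG00000058179) stood at 52.01 and 50.31 FPKM, a ratio of -0.11 (-0.20 to -0.02). Both tumour necrosis factor receptor genes leaned lower, tnfrsf1a with -0.40 (-0.69 to -0.11) and tnfrsf1b with -0.55 (-0.92 to -0.18). Of the factor genes, tnfa was without a count, and tnfb, with 10 counts in WT and 5 in treated, was below the floor. The medians of these lists were 0.005 and -0.15. The lowest ratio among the cytokines was that of ccl34a.4, -0.58 (-1.65 to 0.41).

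**Figure D5:**
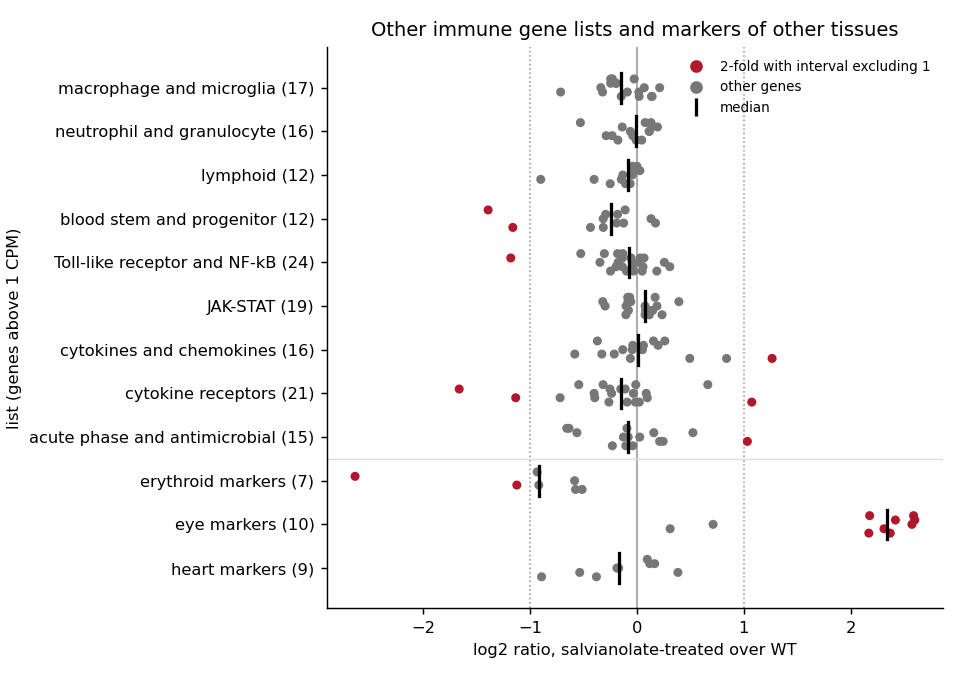
Log2 ratio of treated over WT for genes above 1 CPM in 9 further immune and blood lists and, under the line, 3 lists of markers of other tissues; each point is a gene, black bars are medians and red points are at least 2-fold different with an interval that excludes 1. The medians of the immune and blood lists lie between -0.24 and 0.08, and those of the erythroid and eye markers at -0.92 and 2.34.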

How the data were processed

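RNA-seq of 1 WT and 1 salvianolate-treated library was analysed from the deposited table and the single-library files, which held the same count for all 26597 rows. The deposited values are the authors' estimated counts, also called expected counts, per gene and without scaling, of which 10.3% (WT) and 10.4% (treated) hold decimals. Beside them stand FPKM values deposited by the authors, which correct for length and depth. StringTie 1.3.1, HISAT2, edgeR, DESeq2, Bowtie2 2.2.8 and fastp 0.18.0 are named, with build danRer11, per the submitters' processing notes. Neither tool roles, strand setting nor annotation release is given in the sources used here. Without strand, overlapping genes cannot be told apart.

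Counts were rounded and scaled by TMM (edgeR 4.0.16, R 4.3.3, factors 0.979 and 1.02). Log2 ratios had 0.5 counts added, with exact 95% Clopper-Pearson counting intervals (scipy 1.17.1). A gene was counted as different at a fold of 2 or more when the interval excluded 1, over all 19829 genes above the floor. The rule was tested on simulated counts. Levels of single genes are compared with each other in FPKM, and sums over a list are in CPM. Names came from a table that names 23499 rows. All members, and of each list the most abundant gene, the highest and lowest ratio and each 2-fold different gene, are named. RELA, csf1ra, cyba, cybb, tnfrsf1a, tnfrsf1b, il17ra1a, tnfb, cd4-1, cd8a, MYB, RUNX1 and irg1l were chosen after their values were seen. Members and lists were chosen with earlier results of these data known. No adjusted p-value exists. Alternatives included DESeq2 1.42.0 size factors. Motifs in promoters were planned and not run.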

Additional observations from a re-analysis of the deposited data

How the results depend on the processing

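No paired analysis was possible because there is a single library per condition. Of the 34 members, NCF1 alone was counted as higher and 0 as lower. NCF1 kept this with total counts, DESeq2 1.42.0 and upper-quartile factors and a prior of 2 counts. It also kept this with no floor, a floor on the mean and no interval, which could not have removed it. Rows of 1 name summed, added after seeing the data, left it in place, but NCF1 has a single gene ID. Members counted as higher were 0 with FPKM and a pseudocount of 0.5, which is close to the 0.55 FPKM of NCF1 in WT. They were also 0 at a 5 CPM floor (which leaves out NCF1) and at a fold of 4. Names exactly as written left 10 members, dropped NCF1 and also gave 0. At a fold of 1.5 the members counted as higher were 3, with 1 lower. Over all genes the counts of 533 higher and 143 lower became 311 and 53 with FPKM, 181 and 33 at the 5 CPM floor, 1204 and 523 at a fold of 1.5 and 75 and 21 at a fold of 4, and 235 were lower without a floor. The ratio of each of the 34 members stayed within its counting interval under the 5 settings that alter it (3 scalings, the prior and FPKM). The scalings could not have done otherwise: they shift each ratio by at most 0.06, and the narrowest interval, that of CXCL12, runs from -0.11 to 0.17 around 0.03. The prior moved NCF1 only from 1.17 to 1.12, so the scalings and the prior are no check here. The median of the neutrophil genes became -0.05 at the 5 CPM floor and 0.41 with names exactly as written, that of the pan-leukocyte genes 0.04 with names exactly as written, and that of the cytokine and signalling genes 0.03 with total counts and 0.02 with FPKM; the other medians kept their sign. Total counts shifted each ratio by 0.06. Depth limits the 24 members under 10 CPM in both libraries.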

Other observations

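Of 12 further genes of blood stem and progenitor cells, 2 (16.7%, against 0.721% of all genes) were lower by the fold of 2 after treatment. None was higher (2.69% of all genes), and the median log2 ratio was -0.24. The interval lay below 1 for 5 (41.7%, against 17.3%) and above 1 for 1 (8.33%, against 17.4%). At high counts a small shift excludes 1, as for MEIS1 with 5201 counts in WT and 4918 in treated. Which cells express the 12 was not tested. GFI1B and gfi1aa, repressor genes of the Gfi1 family that act in early and erythroid blood cells, had 39 and 44 counts in WT and 15 and 20 in treated. Their ratios were -1.39 (-2.39 to -0.53) and -1.16 (-2.02 to -0.39). GFI1B reached 1 CPM in WT alone. MEIS1, the most abundant of the list, stood at 103.11 and 98.82 FPKM, a ratio of -0.13, and CBFB had the highest, 0.17 (0.01 to 0.33). MYB and RUNX1, genes of blood stem cells, had 0.13 (-0.07 to 0.34) and -0.32 (-0.94 to 0.29). The 7 erythroid marker genes were all lower, with a median of -0.92 and summed levels of 4780 CPM in WT and 3077 CPM in treated. Their part in the ratios of GFI1B and gfi1aa was not tested.

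Of 15 acute phase and antimicrobial genes 1 (6.67%, against 2.69% of all genes) was at least 2-fold higher and none lower (0.721% of all genes). The interval lay below 1 for 5 (33.3%, against 17.3%) and above 1 for 2 (13.3%, against 17.4%). The gene that was higher was the haptoglobin gene hp, with 13 and 28 counts, a ratio of 1.03 (0.07 to 2.13). It reached 1 CPM in the treated library alone. The complement gene c3a.1, the most abundant, stood at 115.01 and 113.45 FPKM. The antimicrobial peptide gene leap2 had the lowest ratio, -0.66 (-0.96 to -0.37), from 245 and 160 counts, and irg1l, an immune-responsive gene of macrophages and skin, had -0.64 (-1.02 to -0.27) from 151 and 100 counts.

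Counts and FPKM of a gene did not always give the same fold. The counts per FPKM of a member in the treated library were 0.884 to 1.15 times those in WT, with a median of 0.988. For RAG1 the counts per FPKM were 73.5 in WT and 65.4 in treated, and the fold was 1.31 by counts and 1.53 by FPKM. For ccl19a.1 the gap was wider, 2.4 by counts and 4.63 by FPKM. For 4 of the 34 members the folds differed by more than 1.1 times.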
